A study of Caenorhabditis elegans with 6 samples.

Results

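The sarcomere genes of body wall muscle were followed as 10 genes chosen by name: unc-54, myo-3, unc-15, unc-22, unc-89, ttn-1, unc-52, lev-11, tnt-2 and unc-27. Each of the 10 symbols matched 1 identifier in the WBcel235 annotation, out of 46926 genes in the deposited count table, and all 10 passed the filter on low counts. The libraries came from whole wild-type Caenorhabditis elegans of the L4 stage. In the FUDR group (3 libraries) the worms were exposed to 50 µM FUDR, a fluorinated deoxyuridine that blocks thymidylate synthesis and so DNA replication. In the OP50 group (3 libraries) worms were kept on plates seeded with OP50, the Escherichia coli strain used as food, with no drug. Both groups share the wild-type genotype, the stage and the whole-worm RNA preparation.

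Body wall muscle is the striated muscle with which the worm crawls. Its sarcomeres interleave thick filaments, built of myosin around a paramyosin core, with thin filaments of actin that carry tropomyosin and the calcium-sensing troponin complex. Thick filaments are held at the M-line and thin filaments at dense bodies, and both structures are anchored through integrin to the basement membrane between muscle and epidermis. Giant proteins related to titin and obscurin bind along the filaments. Several of the members are also used in other muscles of the animal, so that their reads are not from body wall muscle alone. The product of unc-52 acts outside the muscle cell, and which cells made its RNA was not examined. In RNA from whole animals, fewer cells of a type and less RNA per cell cannot be told apart.

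Gene totals ran from 61312034 to 84750980 counts in the FUDR libraries and from 66005990 to 99234226 in the OP50 libraries. Summed over the 10 members, the FUDR libraries held 640894 to 934947 counts and the OP50 libraries 805902 to 1259107, so counting error was small beside the spread between libraries. The 3 FUDR libraries stood apart from each other in these genes. The members made up 1.46%, 1.10% and 0.814% of all gene counts in FUDR replicates 1, 2 and 3, against 1.27%, 1.22% and 1.28% in OP50 replicates 1, 2 and 3. FUDR replicate 1 was above every OP50 library in this share, and FUDR replicates 2 and 3 were below every one. The test of each member is therefore also given without FUDR replicate 1 and without FUDR replicate 3. These libraries were picked by the members' own share, so the calls made without either of them only describe the spread.

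In the comparison of FUDR with OP50, 1 of the 10 members fell, unc-52, 0 rose, and 9 did not pass the test (edgeR quasi-likelihood test, adjusted p under 0.05 over 17022 genes). By the same rule 41% of all genes tested were called, with 20% higher and 21% lower, so the members' count was below the background. The median log2 fold change of the members was −0.46, against 0.05 over all genes tested. Their FUDR libraries spread widely: the coefficient of variation was between 2.28% and 61.4% for the members in FUDR and between 2.26% and 8.30% in OP50. In DESeq2 the count was also 1 lower and 0 higher. Without FUDR replicate 1 the members called lower numbered 8, against 22.2% of all genes tested, and 0 were called higher, against 19.7%. Without FUDR replicate 3 the number was 1, against 21.6%, and unc-27 was called higher, against 17.9%. Leaving out FUDR replicate 2 or any OP50 library gave 1 member lower, against 15.5% to 17.6% of all genes tested. It gave 0 higher, against 13.5% to 15.9%.

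**Figure D1:**
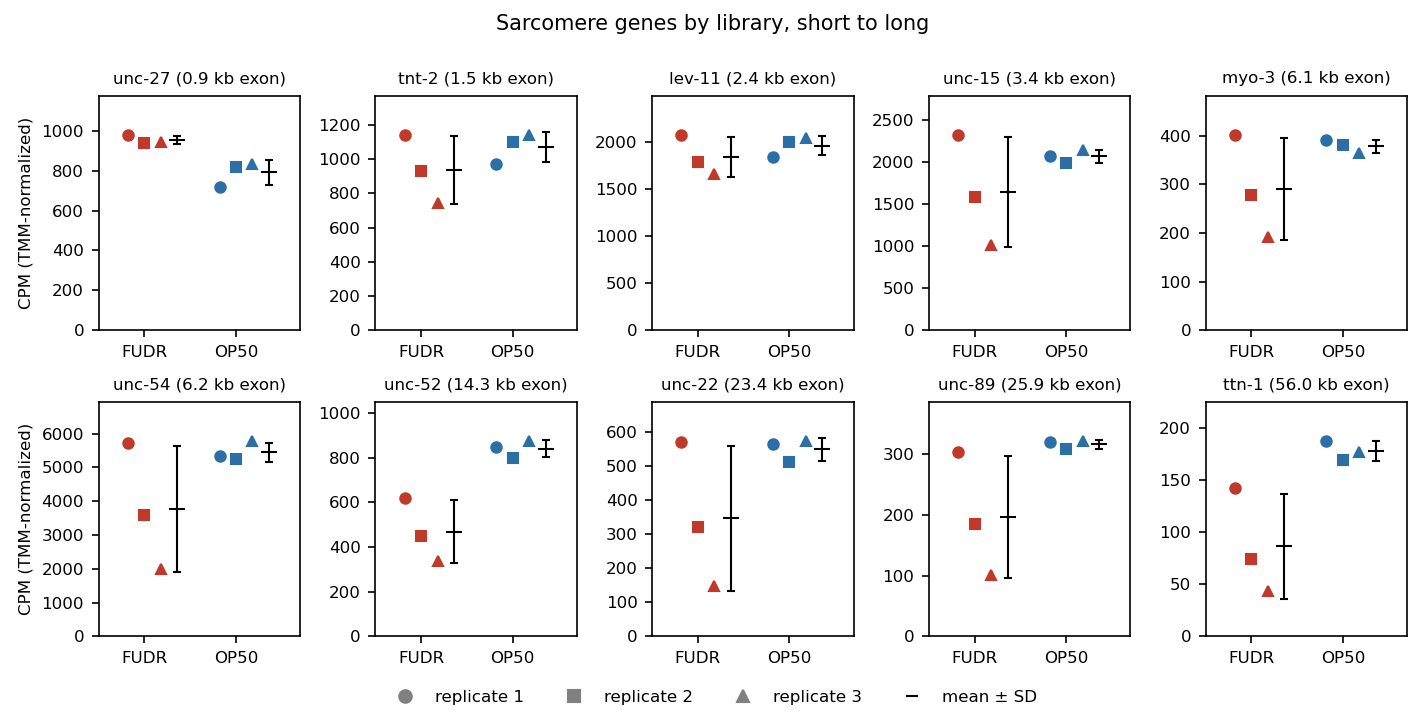
TMM-normalized CPM of each sarcomere gene in 3 FUDR libraries (red, left) and 3 OP50 libraries (blue, right), with panels ordered by union exon length in kb and replicate numbers shown by symbol. Black bars give the mean ± SD. In unc-54, myo-3, unc-22 and unc-89 FUDR replicate 1 lies near the OP50 libraries, and in unc-52 and ttn-1 it lies below them. In all of these FUDR replicate 3 lies lowest, while the 3 FUDR values of unc-27 lie together above OP50.

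The thick filament genes had OP50-like levels in FUDR replicate 1 and lower levels in FUDR replicates 2 and 3. The gene unc-54 encodes the major myosin heavy chain of body wall muscle, myosin B (chromosome I, 14855901 to 14863482, WBcel235). It had 5722, 3577 and 1996 CPM (counts scaled to library size, corrected between libraries by TMM) in FUDR replicates 1, 2 and 3, against 5330, 5251 and 5772 CPM in OP50 replicates 1, 2 and 3. FUDR replicate 1 lay inside the OP50 range and FUDR replicate 3 had 36.6% of the OP50 mean, so the groups overlapped. The log2 fold change was −0.53 ± 0.318 (SE), which was not called (edgeR adjusted p = 0.213). It was −0.97 and called without FUDR replicate 1 (edgeR adjusted p = 0.0141), and −0.23 and not called without FUDR replicate 3 (edgeR adjusted p = 0.346).

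The gene myo-3 encodes myosin A, the minor heavy chain that sits in the middle of the thick filament (chromosome V, 12226817 to 12234343). It had 402, 278 and 192 CPM in the FUDR libraries, against 391, 381 and 364 CPM in the OP50 libraries. FUDR replicate 1 was the highest of the 6 libraries and FUDR replicate 3 the lowest. The log2 fold change of −0.38 ± 0.228 was not called (edgeR adjusted p = 0.214), while it was −0.69 and called without FUDR replicate 1 (edgeR adjusted p = 0.00622) and −0.16 without FUDR replicate 3 (edgeR adjusted p = 0.415).

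The gene unc-15 encodes paramyosin, the core of the thick filament (chromosome I, 7376604 to 7383197). It had 2319, 1587 and 1013 CPM in the FUDR libraries, against 2065, 1987 and 2139 CPM in the OP50 libraries. Again FUDR replicate 1 was above OP50 and the other FUDR libraries were below it. Its log2 fold change was −0.33 ± 0.254 (edgeR adjusted p = 0.328), with −0.67 and a call without FUDR replicate 1 (edgeR adjusted p = 0.0165) and −0.08 without FUDR replicate 3 (edgeR adjusted p = 0.689).

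The genes of the giant proteins had the lowest shares of the OP50 mean in FUDR replicate 3. The gene unc-89 encodes an obscurin-like protein of the M-line (chromosome I, 4035702 to 4090885). It had 303, 185 and 102 CPM in the FUDR libraries, against 320, 308 and 322 CPM in the OP50 libraries. The groups did not overlap, although FUDR replicate 1 was at 95.8% of the OP50 mean. Its log2 fold change was −0.69 ± 0.327 (edgeR adjusted p = 0.129), with −1.14 without FUDR replicate 1 (edgeR adjusted p = 0.0115) and −0.38 without FUDR replicate 3 (edgeR adjusted p = 0.199).

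The gene unc-22 encodes twitchin, a giant kinase that binds the thick filament (chromosome IV, 11972697 to 12011007), and shares exon bases with 4 annotated genes, at most 130 with any of them. It had 569, 319 and 148 CPM in the FUDR libraries, against 563, 510 and 572 CPM in the OP50 libraries. FUDR replicate 1 was within the OP50 range and FUDR replicate 3 had 26.9% of the OP50 mean. A log2 fold change of −0.67 ± 0.399 resulted (edgeR adjusted p = 0.216), with −1.24 without FUDR replicate 1 (edgeR adjusted p = 0.0322) and −0.31 without FUDR replicate 3 (edgeR adjusted p = 0.385).

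The gene ttn-1 encodes a titin-like protein and had the longest exons of the members (chromosome V, 6120909 to 6202632). It had 142, 73.9 and 43.6 CPM in the FUDR libraries, against 187, 169 and 177 CPM in the OP50 libraries. All 3 FUDR libraries were below all OP50 libraries, at 79.9%, 41.6% and 24.5% of the OP50 mean. The log2 fold change of −1.04 ± 0.361 missed the threshold (edgeR adjusted p = 0.0504). It was called without FUDR replicate 1 (−1.60, edgeR adjusted p = 0.00171) and not without FUDR replicate 3 (−0.72, edgeR adjusted p = 0.133).

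The 3 thin filament genes had the log2 fold changes nearest to 0 among the members. The gene lev-11 encodes tropomyosin, which lies along actin and gates myosin binding (chromosome I, 14621169 to 14631094). It had 2076, 1786 and 1662 CPM in the FUDR libraries, against 1845, 2001 and 2045 CPM in the OP50 libraries. The groups overlapped, and the log2 fold change was −0.09 ± 0.113 (edgeR adjusted p = 0.540). It was −0.19 without FUDR replicate 1 (edgeR adjusted p = 0.154) and −0.03 without FUDR replicate 3 (edgeR adjusted p = 0.854). With library size only, with upper quartile scaling or with a filter of 5 CPM in 3 libraries its sign was positive, at 0.13, 0.06 and 0.02, and it was not called.

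The gene tnt-2 encodes a troponin T, which ties the troponin complex to tropomyosin (chromosome X, 8721546 to 8723550). It had 1142, 929 and 741 CPM in the FUDR libraries, against 971, 1098 and 1142 CPM in the OP50 libraries. FUDR replicate 1 and OP50 replicate 3 were the highest, and FUDR replicate 3 was the lowest. Its log2 fold change was −0.19 ± 0.155 (edgeR adjusted p = 0.352), or 0.03 with library size only. It was −0.36 without FUDR replicate 1 (edgeR adjusted p = 0.0448) and −0.05 without FUDR replicate 3 (edgeR adjusted p = 0.750).

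The gene unc-27 encodes a troponin I, the inhibitory subunit (chromosome X, 8789456 to 8790621). It had 980, 939 and 947 CPM in the FUDR libraries, against 717, 821 and 836 CPM in the OP50 libraries. It was the only member above OP50 in all 3 FUDR libraries, and the groups did not overlap. The log2 fold change of 0.27 ± 0.0972 just missed the threshold (edgeR adjusted p = 0.0517). It was called without FUDR replicate 3 (0.27, edgeR adjusted p = 0.0432) and not without FUDR replicate 1 (0.25, edgeR adjusted p = 0.0800). It was also called with upper quartile scaling (0.42, edgeR adjusted p = 0.00579) and with library size only (0.50, edgeR adjusted p = 0.00138).

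The gene unc-52, whose product lies outside the muscle cell, fell. It encodes perlecan, the basement membrane proteoglycan to which muscle integrin anchors dense bodies and M-lines (chromosome II, 14647321 to 14684456). It had 618, 449 and 337 CPM in the FUDR libraries, against 848, 798 and 874 CPM in the OP50 libraries. All 3 FUDR libraries were below OP50, at 73.5%, 53.5% and 40.2% of the OP50 mean. The log2 difference was −0.84 ± 0.193 (edgeR adjusted p = 0.00873), a level 1.79-fold lower in FUDR. It was called without FUDR replicate 1 (−1.10, edgeR adjusted p = 0.000385) and without FUDR replicate 3 (−0.66, edgeR adjusted p = 0.00373). Its adjusted p was between 2.79e-05 and 0.0391 over the 16 alternatives tried.

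FUDR and OP50 libraries were fully apart in 4 members, against 54.7% of all genes tested. Of these 3 were lower (unc-89, ttn-1 and unc-52), against 26.7%, and 1 was higher (unc-27), against 28%. In FUDR replicate 1, 3 of the 10 members were below the OP50 mean, namely unc-89, ttn-1 and unc-52. In FUDR replicates 2 and 3 the number was 9 each, with unc-27 the exception. The log2 ratio to the OP50 mean lay between −0.44 and 0.31 in FUDR replicate 1, between −1.27 and 0.25 in FUDR replicate 2 and between −2.03 and 0.26 in FUDR replicate 3.

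The members differ in the length of their exons, and the ratio to OP50 followed that length. The union of annotated exons spans 933 bases in unc-27, 1513 in tnt-2, 2383 in lev-11, 3424 in unc-15, 6104 in myo-3, 6204 in unc-54, 14253 in unc-52, 23368 in unc-22, 25942 in unc-89 and 56044 in ttn-1. Over these 10 genes the Spearman correlation between exon length and the log2 ratio to OP50 was −0.87 in FUDR replicate 1, −0.94 in FUDR replicate 2 and −0.95 in FUDR replicate 3. In OP50 libraries, each set against the other OP50 libraries, it was 0.84, −0.81 and −0.53 in replicates 1, 2 and 3, over a far smaller range of ratios (between −0.21 and 0.14). The points of a correlation share a library and a scaling factor, and long genes of this group are also those of the giant proteins.

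**Figure D2:**
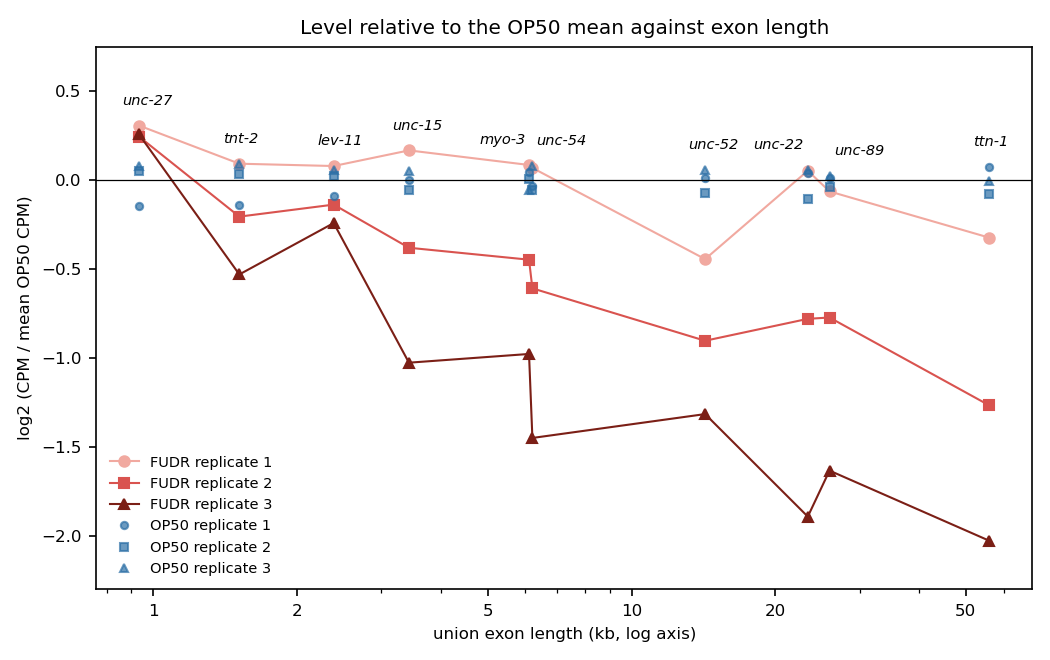
Log2 ratio of CPM to the mean OP50 CPM (vertical axis) against union exon length in kb (horizontal axis, log scale) for the 10 sarcomere genes, with FUDR replicates joined by red lines and OP50 replicates as blue points. FUDR replicate 3 runs between 0.26 in unc-27 and −2.03 in ttn-1, and FUDR replicate 1 stays between −0.44 and 0.31.

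Other genes of the same libraries showed the same ordering. Among 15877 tested protein-coding genes outside the members and the muscle lists, the Spearman correlation between exon length and the log2 ratio was −0.25, −0.37 and −0.49 in FUDR replicates 1, 2 and 3, against 0.09, −0.16 and 0.02 in OP50 replicates 1, 2 and 3. Genes with exons under 1 kb (5163 genes) had a median log2 fold change of 0.31, with 30.3% called higher and 8.02% called lower. Genes of 2 to 4 kb (3116 genes) had a median of −0.23 and genes of 4 to 8 kb (635 genes) a median of −0.40, with 40.9% and 47.7% called lower. Genes of 8 to 16 kb (76 genes) had a median of −0.53, with 56.6% called lower and 1.32% called higher. In that last class the median ratio was −0.23, −0.51 and −0.95 in FUDR replicates 1, 2 and 3, against 0.10, −0.09 and 0.01 in OP50 replicates 1, 2 and 3. From 16 kb up only 5 other genes were tested, so the 3 giant-protein genes have few others beside them. These 5 genes had a median of −0.41, nearer to 0 than the 8 to 16 kb class, with 20% called lower. Their median ratio was 0.03, −0.45 and −0.99 in FUDR replicates 1, 2 and 3, against 0.12, −0.17 and 0.02 in OP50 replicates 1, 2 and 3. The part of the relation to exon length in the members' result was not tested.

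**Figure D3:**
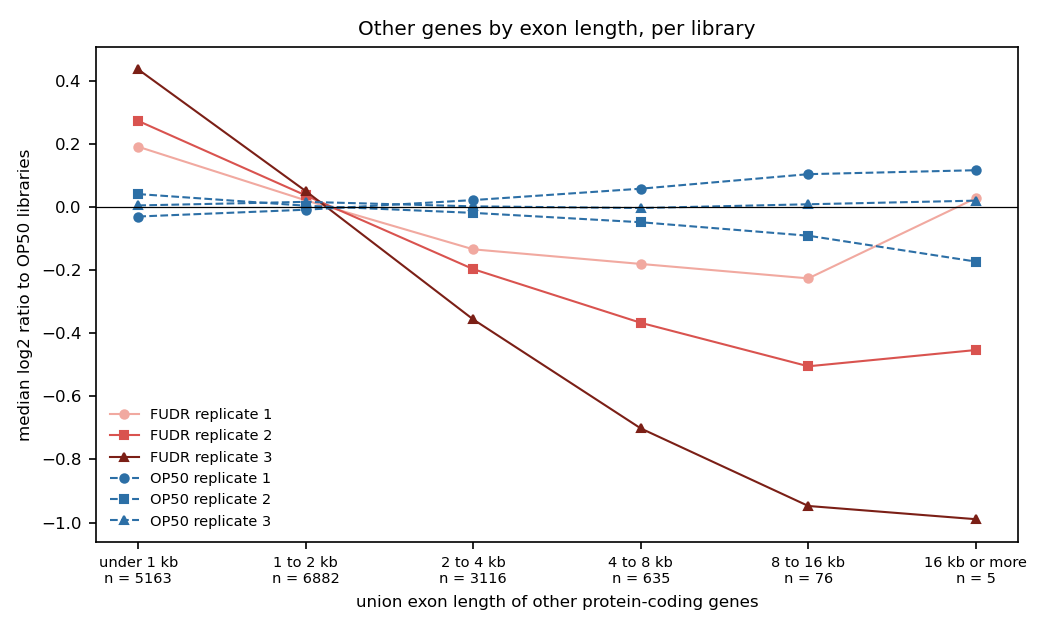
Median log2 ratio to OP50 libraries (vertical axis) of other tested protein-coding genes, grouped by union exon length (horizontal axis, with the number of genes), with 1 line for each library and FUDR in red. In FUDR replicate 3 the medians run between 0.44 under 1 kb and −0.99 at 16 kb or more, and the OP50 libraries stay between −0.17 and 0.12.

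On a scale that takes out exon length, unc-52 was called lower under both forms of the correction and ttn-1 under 1 of them. When a smooth trend of log2 CPM on exon length was taken out of each library, an alternative chosen after seeing the data, unc-52 remained lower at −0.29 ± 0.0702 (edgeR adjusted p = 0.0103). Its length-adjusted log2 ratio was −0.26, −0.35 and −0.26 in FUDR replicates 1, 2 and 3, against −0.06, 0.01 and 0.05 in OP50 replicates 1, 2 and 3, so the 3 FUDR libraries lay close together. With the trend removed ttn-1 was −0.48 ± 0.148 (edgeR adjusted p = 0.0358), but with the trend taken only from genes under 16 kb it was −0.54 and not called (edgeR adjusted p = 0.0587), while unc-52 was at −0.28 and called (edgeR adjusted p = 0.0118). For ttn-1 there were hardly any other genes of its length to set it against. Under the first of these settings 16.9% of all genes were called lower and 24.2% higher.

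The thick filament genes and the other giant proteins came close to OP50 on that scale. Length-adjusted log2 fold changes were −0.15 ± 0.210 for unc-54, 0.03 ± 0.114 for myo-3, −0.01 ± 0.188 for unc-15, −0.12 ± 0.117 for unc-89 and −0.15 ± 0.208 for unc-22, none of them called. The FUDR libraries still differed, with unc-54 at 0.26, −0.19 and −0.67 in replicates 1, 2 and 3. The troponin I gene unc-27 went from 0.27 to 0.23 ± 0.0823 and was not called (edgeR adjusted p = 0.0517). Its uncorrected value was below the median of 0.31 of other genes with exons under 1 kb, of which 30.3% were called higher. Unlike that median, the trend was taken only from genes of at least 5 CPM. Removing the trend also removes any difference between long and short genes that the treatment itself made.

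Levels of different genes can be compared only per length. The length used is the union of exons over all annotated transcripts, 1 to 20 per member, so genes with many transcripts may be placed too low. The relation of the FUDR libraries to exon length was not taken out of these levels. On the scale of CPM per kilobase of exon, the FUDR means were led by unc-27 at 1024 ± 23.4, followed by lev-11 at 773 ± 89.2, tnt-2 at 619 ± 132, unc-54 at 607 ± 301 and unc-15 at 479 ± 191 (SD, 3 libraries). FUDR replicates 2 and 3 had that order, and FUDR replicate 1 did not. In FUDR replicate 1, unc-54 was at 922, above lev-11 at 871 and tnt-2 at 755, while in FUDR replicate 3 it was at 322, below lev-11 at 698 and tnt-2 at 490. In all 3 FUDR libraries unc-27 was the highest of the members and unc-15 the lowest of these 5 genes. In OP50 the same 5 genes led, with unc-54 at 879 ± 45.3, unc-27 at 848 ± 69.4, lev-11 at 824 ± 44.1, tnt-2 at 707 ± 58.7 and unc-15 at 603 ± 22.3. The spread of the OP50 libraries does not part unc-54, unc-27 and lev-11. Next came myo-3 at 47.6 ± 17.3 in FUDR and 62.0 ± 2.26 in OP50, and unc-52 at 32.8 ± 9.89 in FUDR and 58.9 ± 2.71 in OP50, a pair whose OP50 libraries overlapped. The giant-protein genes were lowest, with unc-22 at 14.8 ± 9.07 in FUDR and 23.5 ± 1.43 in OP50, unc-89 at 7.59 ± 3.89 in FUDR and 12.2 ± 0.276 in OP50, and ttn-1 at 1.54 ± 0.901 in FUDR and 3.17 ± 0.165 in OP50.

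Ratios of 2 members within a library do not depend on library scaling. Of 6 ratios compared, 4 did not overlap between the groups, and each of these had an exact two-sided permutation p of 0.1, the smallest that 3 against 3 libraries can give (0.15 after Benjamini-Hochberg adjustment over the 6). In all 4 the gene with shorter exons was relatively higher in FUDR, the direction of the relation to exon length given above. The part of that relation in the ratios was not tested. The share of troponin I to troponin T reads, unc-27 over tnt-2, was 0.858, 1.01 and 1.28 in FUDR replicates 1, 2 and 3, against 0.739, 0.748 and 0.733 in OP50 replicates 1, 2 and 3. The ratio was higher in all 3 FUDR libraries, and the OP50 libraries lay within a narrow band. Paramyosin over myosin B, unc-15 over unc-54, was 0.405, 0.444 and 0.508 in FUDR, against 0.388, 0.378 and 0.371 in OP50. Here too every FUDR library was higher.

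Twitchin over the titin-like gene, unc-22 over ttn-1, was 4.01, 4.32 and 3.39 in FUDR, against 3.01, 3.02 and 3.22 in OP50. The obscurin-like gene over myosin B, unc-89 over unc-54, was 0.0530, 0.0518 and 0.0511 in FUDR, against 0.0600, 0.0587 and 0.0557 in OP50, and was lower in every FUDR library. That ratio had the tightest FUDR libraries of the 6, with an SD of 0.03 on the log2 scale. With the length trend removed, the log2 fold changes were −0.12 for unc-89 and −0.15 for unc-54. Tropomyosin over myosin B, lev-11 over unc-54, was 0.363, 0.499 and 0.833 in FUDR, against 0.346, 0.381 and 0.354 in OP50, with FUDR replicate 1 inside the OP50 range (exact permutation p = 0.2, adjusted 0.24). Myosin B over myosin A, unc-54 over myo-3, was 14.2, 12.9 and 10.4 in FUDR, against 13.6, 13.8 and 15.9 in OP50, and the groups overlapped (exact permutation p = 0.3, adjusted 0.3).

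**Figure D4:**
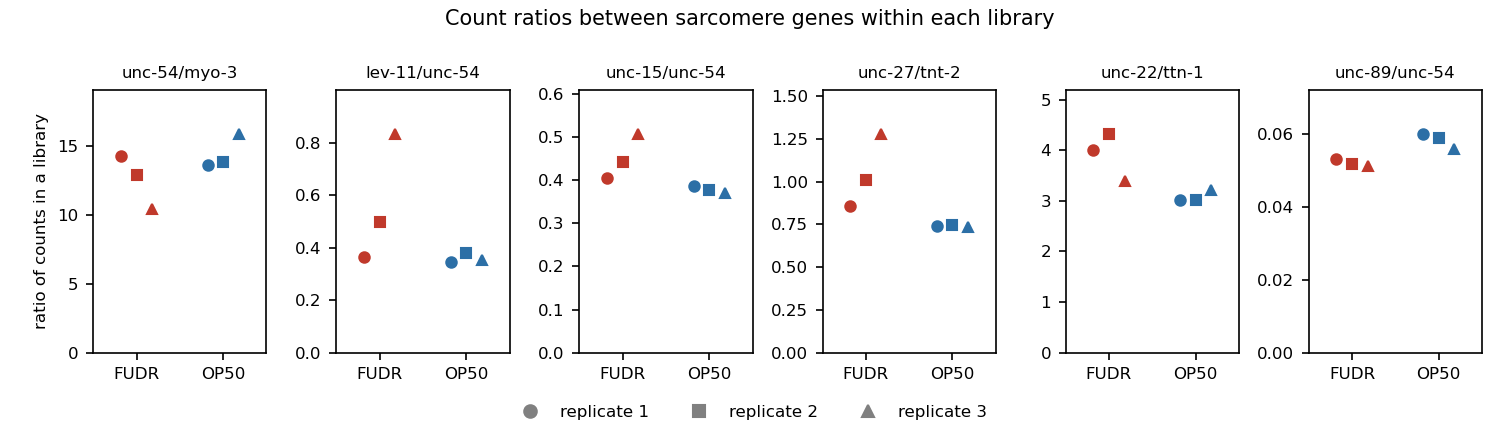
Ratio of raw counts of 2 sarcomere genes within each library (vertical axes, starting at 0), with 3 FUDR libraries (red, left) and 3 OP50 libraries (blue, right) and symbols for the replicate. The unc-27/tnt-2 ratio is 0.858 to 1.28 in FUDR and 0.733 to 0.748 in OP50, and the unc-54/myo-3 ratio overlaps between the groups.

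Other genes of muscle structure and function were examined in 9 lists. Of the genes tested in them, 16 rose, 11 fell and 92 did not pass the test, with a median log2 fold change of −0.04. These were shares of 13.4% higher and 9.24% lower, against 20% and 21% of all genes tested, and how they stood to all genes depended on the setting. The counts in single lists given below are to be read beside the same 20% and 21%. Without FUDR replicate 1, 14 rose and 39 fell, or 11.8% and 32.8%, against 19.7% and 22.2% of all genes. With the length trend removed 45 rose and 6 fell, or 37.8% and 5.04%, against 24.2% and 16.9% of all genes. With library size only 37.8% rose, against 34.2% of all genes. The numbers also moved without FUDR replicate 2 (8 rose, 6 fell), OP50 replicate 2 (6 rose, 7 fell) and OP50 replicate 3 (11 rose, 5 fell). In that order the shares higher were 6.67%, 5% and 9.17%, against 13.5%, 13.7% and 14.7% of all genes. The shares lower were 5%, 5.83% and 4.17%, against 15.5%, 15.5% and 16%. By exon length, the 54 genes under 2 kb had a median of 0.11 with 12 rises and 2 falls. The 11 genes of 8 kb or more had a median of −0.50 with 2 falls and 0 rises, and a median log2 ratio of −0.07, −0.53 and −1.22 in FUDR replicates 1, 2 and 3, against 0.06, −0.10 and 0.05 in OP50 replicates 1, 2 and 3.

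Among 10 thick filament and M-line genes, 2 rose and 1 fell, with a median of 0.08. The M-line zinc finger gene unc-98 rose by 0.57 on the log2 scale (edgeR adjusted p = 0.00210), and this call held under the 16 alternatives. It had 23.34, 24.96 and 27.7 CPM in the FUDR libraries, against 16.41, 16.86 and 17.99 CPM in the OP50 libraries. The LIM protein gene lim-9 rose (0.31) and the myosin chaperone gene unc-45 fell (−0.30). The first call was lost without FUDR replicate 2 (0.30, edgeR adjusted p = 0.0581) and OP50 replicates 2 (0.29, 0.0839) and 3 (0.31, 0.0636), and the second without OP50 replicates 2 (−0.31, 0.0732) and 3 (−0.30, 0.0739) and with upper quartile scaling (−0.16, 0.121), library size only (−0.08, 0.457) and the 5 CPM filter (−0.20, 0.0585). With the length trend removed unc-45 was at 0.05. The regulatory myosin light chain gene mlc-2 stood at 0.19 (edgeR adjusted p = 0.118), and was called with upper quartile scaling (0.34, 0.0105), library size only (0.41, 0.00302) and the 5 CPM filter (0.30, 0.0130).

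Of 23 actin, troponin and other thin filament genes, 5 rose and 1 fell, with a median of 0.09. The troponin C gene of body wall muscle, pat-10, had 1465, 1647 and 1921 CPM in the FUDR libraries, against 1111, 1241 and 1258 CPM in the OP50 libraries. It rose by 0.48 ± 0.122 (edgeR adjusted p = 0.0134), every FUDR library being above OP50. The pharyngeal troponin C gene tnc-2 rose by 0.69 (edgeR adjusted p = 0.00160), and both troponin C calls held under the 16 alternatives. The pharyngeal troponin I gene tni-4 rose by 0.42 (edgeR adjusted p = 0.0105), which did not hold without OP50 replicates 2 (0.38, 0.0566) and 3 (0.34, 0.0543).

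The actin gene act-2 fell by 0.51 on the log2 scale (edgeR adjusted p = 0.0183), a call lost without FUDR replicate 2 (−0.49, 0.0716) or OP50 replicates 2 (−0.48, 0.0670) and 3 (−0.47, 0.0649). The actin genes are near-identical, so reads that fit several of them may have been set aside as not uniquely aligned. The formin gene fhod-1 (0.36) and the profilin gene pfn-3 (0.38), named after their values were seen to complete the count, also rose. The fhod-1 call was lost without each library but FUDR replicate 3 (edgeR adjusted p between 0.0649 and 0.104), and the pfn-3 call without each but FUDR replicate 1 and OP50 replicate 3 (between 0.0552 and 0.0906) and with the length trend removed (0.17, 0.233).

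In the list of dense body and integrin adhesion genes, 2 of 21 rose and 3 fell, with a median of −0.12. The paxillin gene pxl-1 rose by 0.31 (edgeR adjusted p = 0.00983), a call kept under the 16 alternatives. The beta integrin gene pat-3, the receptor partner of the unc-52 product, had 141, 123 and 98.9 CPM in the FUDR libraries, against 162, 167 and 169 CPM in the OP50 libraries. It fell by 0.45 ± 0.125 on the log2 scale (edgeR adjusted p = 0.0189). Its call was lost without FUDR replicate 2 (−0.46, 0.0589) or OP50 replicates 2 (−0.46, 0.0583) and 3 (−0.45, 0.0590), with library size only (−0.23, 0.0798) and with the length trend removed (−0.14, 0.147).

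The adhesion gene rsu-1 rose (0.30) and the signalling genes pix-1 (−0.32) and git-1 (−0.28) fell, git-1 being named after its value was seen. The rsu-1 call was lost without FUDR replicate 2 (0.33, edgeR adjusted p = 0.0555) or OP50 replicates 1 (0.31, 0.0559) and 2 (0.25, 0.107). The pix-1 call was lost without FUDR replicate 2 (−0.28, 0.0992) or OP50 replicates 1 (−0.30, 0.0693) and 3 (−0.31, 0.0775), with upper quartile scaling (−0.17, 0.163), library size only (−0.09, 0.466) and the 5 CPM filter (−0.21, 0.0737), and its sign turned with the length trend removed (0.01). The git-1 call was lost without FUDR replicates 1 (−0.26, 0.0808) and 2 (−0.28, 0.119) or OP50 replicates 2 (−0.26, 0.129) and 3 (−0.26, 0.122), and also with upper quartile scaling (−0.13, 0.312), library size only (−0.05, 0.752), no filter (−0.28, 0.0755), the 5 CPM filter (−0.17, 0.157) and the length trend removed (−0.01, 0.949).

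For excitation and contraction coupling, 2 of 13 genes rose and 0 fell, with a median of −0.04. The potassium channel regulator gene unc-93 rose by 0.55 (edgeR adjusted p = 0.00964) under all 16 alternatives. The potassium channel gene shk-1 rose by 0.48 (edgeR adjusted p = 0.0212), a call lost without FUDR replicates 1 (0.42, 0.0502) and 2 (0.42, 0.0869) or OP50 replicates 2 (0.48, 0.0670) and 3 (0.41, 0.0831). The calcium pump gene sca-1 (−0.60, edgeR adjusted p = 0.0720) and the potassium channel gene slo-1 (−0.37, 0.0715) were not called. Without FUDR replicate 1 both were called (−0.91, 0.00303, and −0.54, 0.00521). DESeq2 called both as well (sca-1 −0.63, adjusted p = 0.0118, and slo-1 −0.39, 0.0439), and edgeR called slo-1 with no filter (−0.37, 0.0470). With the length trend removed slo-1 was at 0.0023.

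At the neuromuscular receptor, lev-8 rose and unc-50 fell among 12 tested genes, whose median was 0.11. The gene unc-50, needed for transport of acetylcholine receptors, fell by 0.51 on the log2 scale (edgeR adjusted p = 0.00470) under all 16 alternatives. The receptor subunit gene lev-8 rose by 0.71 (edgeR adjusted p = 0.0177), a call lost without FUDR replicate 2 (0.73, 0.0530) or OP50 replicate 1 (0.58, 0.0575). The subunit gene unc-29 (0.40, 0.0792) and oig-4 (0.59, 0.0854) were not called. Both were called with upper quartile scaling (unc-29 0.55, 0.0302, and oig-4 0.75, 0.0427) and library size only (0.63, 0.0225, and 0.82, 0.0325), and unc-29 also without FUDR replicate 1 (0.51, 0.0323) and with the length trend removed (0.54, 0.0277).

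The dystrophin complex, which links the muscle cytoskeleton to the membrane, had 2 rises and 2 falls among 9 genes and a median of 0.18. The dystrophin gene dys-1, with 11508 bases of exon, had 76.1, 63.8 and 44.3 CPM in the FUDR libraries, against 127, 117 and 108 CPM in the OP50 libraries. It fell by 0.93 ± 0.178 on the log2 scale (edgeR adjusted p = 0.00405). The transporter gene snf-6 fell by 0.78 on the log2 scale (edgeR adjusted p = 0.00148), and both calls held under the 16 alternatives. The syntrophin gene stn-1 (0.42) and sgn-1 (0.63) rose. The stn-1 call was lost without FUDR replicate 2 (0.38, 0.0783) or OP50 replicates 2 (0.43, 0.0536) and 3 (0.37, 0.0701). The sgn-1 call was lost without FUDR replicates 1 (0.62, 0.0569) and 3 (0.52, 0.0802) or OP50 replicates 1 (0.45, 0.0960) and 2 (0.60, 0.0959).

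Transcription factor genes of muscle had a median of 0.28, with 2 rises and 0 falls among 6. The gene mef-2 rose by 0.43 (edgeR adjusted p = 0.0117), which did not hold without OP50 replicate 2 (0.37, 0.0591), and hlh-8 rose by 0.61 (0.0480), a call kept only without FUDR replicate 1 when libraries were left out in turn (edgeR adjusted p between 0.102 and 0.136 without each of the other 5). The hlh-8 call was also lost with RLE scaling (0.59, edgeR adjusted p = 0.0548), no filter (0.61, 0.0906), DESeq2 (0.58, 0.0790) and the length trend removed (0.53, 0.0647). The gene fozi-1 was at 0.56 (0.105), and was called without FUDR replicate 3 (0.81, 0.00215), with upper quartile scaling (0.71, 0.0407), library size only (0.78, 0.0198) and the length trend removed (0.88, 0.00707). The serum response factor gene unc-120, which drives the muscle programme, was at 0.14 (0.407), and at 0.37 and called with library size only (0.0397).

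Basement membrane genes had the lowest median of the 9 lists, −0.31, with 2 falls and 0 rises among 16. The fibulin gene fbl-1 had 30.4, 28.5 and 27.8 CPM in the FUDR libraries, against 44.9, 43.5 and 40.7 CPM in the OP50 libraries. It fell by 0.57 ± 0.0807 on the log2 scale (edgeR adjusted p = 0.000886), and the nidogen gene nid-1 fell by 0.55 (0.00122). The fbl-1 call held under the 16 alternatives and the nid-1 call was lost only with the length trend removed (−0.12, 0.438). In both genes the FUDR libraries lay close together. The peroxidasin gene pxn-2 (−0.31, 0.0552) and the giant adhesion gene dig-1, with 39690 bases of exon (−0.95, 0.0797), were not called. The pxn-2 gene was called without FUDR replicate 3 (−0.34, 0.0487) or OP50 replicate 1 (−0.41, 0.0254), with RLE scaling (−0.33, 0.0459) and with DESeq2 (−0.34, 0.0393), and had the other sign with the length trend removed (0.09), and dig-1 was called without FUDR replicate 1 (−1.49, 0.00901).

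The hemidesmosomes that pass muscle force through the epidermis had 1 fall and 0 rises among 9 genes and a median of −0.19. The myotactin gene let-805, with 14200 bases of exon, fell by 0.77 ± 0.225 on the log2 scale (edgeR adjusted p = 0.0264). That call was lost without FUDR replicate 2 (−0.73, 0.0796) or OP50 replicates 1 (−0.69, 0.0643) and 3 (−0.77, 0.0533), with library size only (−0.56, 0.0543) and with no filter (−0.77, 0.0826). The genes mua-3 (−0.25, 0.0696), vab-19 (−0.33, 0.0932) and vab-10 (−0.37, 0.135) were not called. All 3 were called without FUDR replicate 1 (−0.34, 0.0207, then −0.48, 0.0112, and −0.60, 0.00681), and mua-3 with DESeq2 (−0.28, 0.0454). With the length trend removed vab-10 was higher (0.28, 0.0207) and mua-3 was at 0.33 (0.0820).

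**Figure D5:**
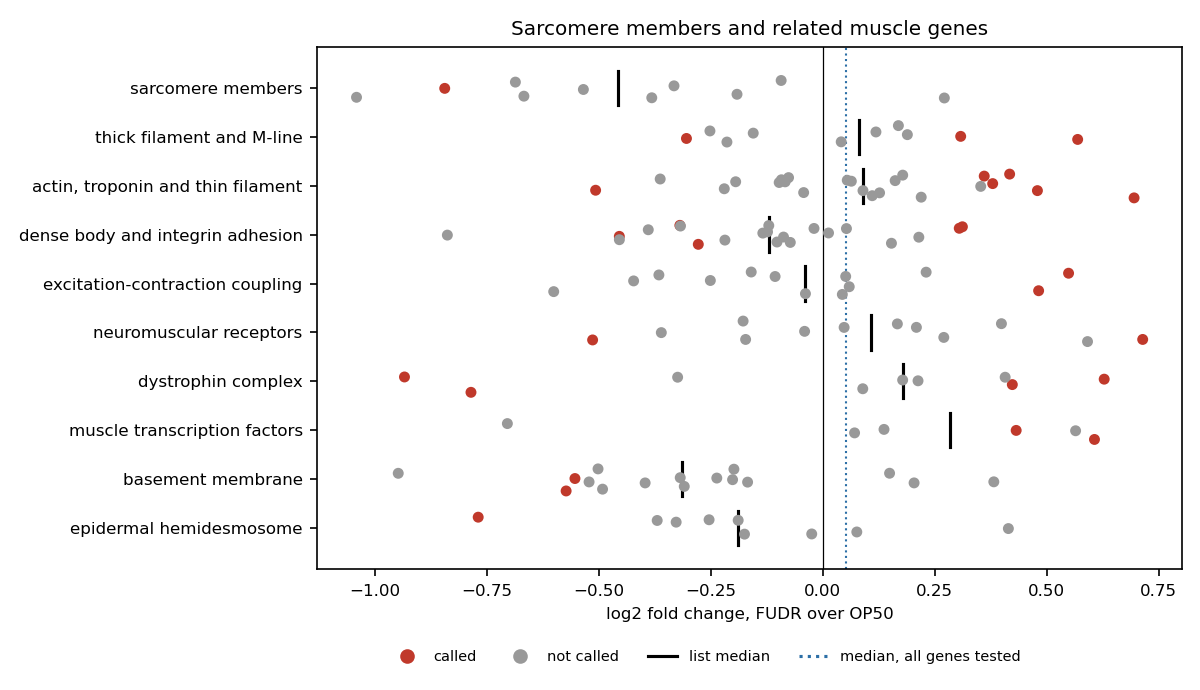
Log2 fold change of FUDR over OP50 (horizontal axis) of the sarcomere members and of each tested gene in 9 muscle lists (vertical axis), with called genes in red, other genes in grey, a black line at each list's median and a dotted line at the median of all genes tested. The members' median is −0.46, and the medians of the other lists lie between −0.31 and 0.28.

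Markers of other tissues were set beside the members, since all tissues share the library total. Over all genes tested 20% were called higher and 21% lower. Germline markers had 9 falls and 0 rises among 10 genes, and their summed level was 2534 to 3458 CPM in FUDR, against 6048 to 6276 CPM in OP50. The RNA helicase gene cgh-1 fell by 1.61 on the log2 scale (edgeR adjusted p = 0.000160), while glh-1 was at −0.28 (0.0734) and was called without FUDR replicate 1 (−0.38, 0.0162) and with DESeq2 (−0.31, 0.0357). The part of this loss in the members' result was not tested. In pharyngeal muscle, tnc-2 and tni-4 rose and 0 of 7 markers fell, with summed levels of 475 to 1134 CPM in FUDR, against 788 to 1123 CPM in OP50. The pharyngeal myosin genes declined from FUDR replicate 1 to FUDR replicate 3, as the body wall myosins did. Unlike those, they also spread in OP50, where replicate 1 lay above the other libraries. The gene myo-2 had 419, 258 and 111 CPM in FUDR, against 457, 314 and 320 CPM in OP50 (−0.47, edgeR adjusted p = 0.392). The gene myo-1 had 431, 285 and 143 CPM in FUDR, against 426, 284 and 285 CPM in OP50 (−0.21, edgeR adjusted p = 0.660). The myo-1 value was 0.10 without FUDR replicate 3.

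Epidermal markers summed to 2934 to 3612 CPM in FUDR and 2400 to 2632 CPM in OP50. Of 8, the collagen gene col-19 rose (0.41), a call lost without OP50 replicates 1 (0.35, edgeR adjusted p = 0.0789), 2 (0.44, 0.0600) and 3 (0.41, 0.0716), and lin-26 fell (−0.58), while bli-1 was at −0.42 (0.121). Intestinal markers summed to 5587 to 7671 CPM in FUDR and 5862 to 6250 CPM in OP50. Of 8, elt-2 (0.44) and ifb-2 (0.41) rose and pept-1 fell (−0.50), with asp-1 at 0.12 and act-5 at 0.03. With library size only asp-1 (0.34, edgeR adjusted p = 0.0332) and act-5 (0.26, 0.0367) were called. With the length trend removed pept-1 was at −0.18 and not called (edgeR adjusted p = 0.0584). The elt-2 call was lost without FUDR replicate 2 (0.42, 0.0579) or OP50 replicates 1 (0.36, 0.0513) and 2 (0.43, 0.0560), and the ifb-2 call without FUDR replicate 2 (0.44, 0.0540) or OP50 replicates 2 (0.38, 0.0873) and 3 (0.40, 0.0735). Genes lin-26, elt-2, ifb-2 and pept-1 were named after their values were seen.

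Neuronal markers summed to 454 to 488 CPM in FUDR and 391.7 to 439.7 CPM in OP50, and 5 of 10 rose, against 20% of all genes tested. These were sbt-1 (0.56), unc-64 (0.33), rab-3 (0.38), snt-1 (0.35) and ric-4 (0.43), all named after their values were seen, while the most abundant, snb-1 and egl-3, were at 0.13 and 0.10 and not called. The snb-1 gene was called with upper quartile scaling (0.28, edgeR adjusted p = 0.0142), library size only (0.36, 0.00690) and the 5 CPM filter (0.24, 0.0227), and egl-3 with the length trend removed (0.38, 0.0269). The sbt-1 call held without each library in turn, and without OP50 replicate 2 the others were not called (edgeR adjusted p between 0.0719 and 0.112). The snt-1 call was also lost without FUDR replicate 2 (0.38, 0.0570) and OP50 replicate 3 (0.30, 0.0911), and the ric-4 call without FUDR replicate 2 (0.49, 0.0537) and OP50 replicates 1 (0.44, 0.0748) and 3 (0.46, 0.0590). Coelomocyte markers summed to 30.8 to 32.7 CPM in FUDR and 20.1 to 25.7 CPM in OP50, with cup-4 higher (0.63) and lgc-26 at 0.29. Gonad sheath markers summed to 105 to 109 CPM in FUDR and 105 to 114 CPM in OP50, with inx-8 at −0.20, ceh-18 at 0.12 and 0 of 4 called. With the length trend removed lgc-26 (0.44, edgeR adjusted p = 0.00859) and ceh-18 (0.40, 0.00373) were called, as they were with library size only (0.52, 0.00570, and 0.34, 0.0240). The lgc-26 gene was also called with upper quartile scaling (0.44, 0.0120), the 5 CPM filter (0.40, 0.016) and without FUDR replicate 3 (0.34, 0.0430). Without OP50 replicate 1, inx-8 was called lower (−0.27, edgeR adjusted p = 0.0465). None of the listed markers was at 0 in any library.

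The genes whose pattern over the 6 libraries was most like the members' mean were found among 5642 other genes with a symbol and a mean of at least 10 CPM, by the root mean square difference of centred log2 CPM. The 5 nearest were nep-17 (0.0526), vit-6 (0.0546), epi-1 (0.0551), tln-1 (0.0608) and cpna-2 (0.0617). Of these epi-1 encodes a laminin alpha chain and tln-1 talin, and both belong to the muscle lists, while nep-17, vit-6 and cpna-2 do not. The members themselves differed from their mean by 0.0689 (myo-3) to 0.507 (unc-27), so each of the 5 genes was nearer to it than any member. The exons of these 5 genes span 4891 bases in nep-17, 5064 in vit-6, 11247 in epi-1, 8679 in tln-1 and 23888 in cpna-2. The members' mean pattern was 0.27, −0.26 and −0.82 in FUDR replicates 1, 2 and 3, against 0.25, 0.24 and 0.31 in OP50 replicates 1, 2 and 3, and nep-17 was at 0.22, −0.24 and −0.71, against 0.24, 0.20 and 0.29. None of the 5 was called (edgeR adjusted p between 0.0952 and 0.195).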

How the data were processed

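Poly(A)-selected RNA was sequenced per the labels' protocols (Zymo Direct-zol columns, NEBNext Ultra kit). STAR, HTSeq and build WBcel235 are named by the submitters' processing notes. Versions, annotation release and strand setting were not given in the sources used here, so reads of genes overlapping on opposite strands may not be told apart. The deposited values are raw counts per gene. Summary rows held 4.55% to 5.33% of counts per library and were left out. Of the members, unc-22 shares exon bases with 4 annotated genes and unc-52 with 1.

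The test over genes used edgeR 4.0.16 under R 4.3.3 (filterByExpr with a minimum count of 10 and minimum total of 15, TMM, robust quasi-likelihood F test, Benjamini-Hochberg adjustment over 17022 genes, threshold 0.05). Standard errors are the log2 fold change over the square root of F. Exon unions, names and positions came from Ensembl release 115 (WBcel235). The test's code was checked on simulated counts with few changed genes and no trend with exon length. That check does not cover data with many changed genes or such a trend. Libraries of a group were not duplicates (chi-square per degree of freedom at least 18.7). Whether the libraries are from separate cultures is not said by the labels, so each p-value reflects only how these libraries spread, which may be technical.

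Alternatives were DESeq2 1.42.0, RLE, upper quartile or no scaling, no filter, a minimum of 5 CPM in at least 3 libraries, a block for replicate number, a fit without robust estimation and leaving out each library. A lowess trend of log2 CPM (prior count 2) on exon length, from protein-coding genes of at least 5 CPM outside the muscle lists, was added as an offset after seeing the data. Named genes were all members, up to 4 genes of smallest p per muscle list, the 2 most abundant per marker list and the 5 of nearest pattern. The members and lists were chosen with earlier results of these data known. Of 121 muscle list symbols 120 were found, and lev-10 was not tested.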

Additional observations from a re-analysis of the deposited data

Results flagged for a closer look

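The share of counts that fell in no annotated gene, which no comparison above uses, averaged 0.447% in the FUDR libraries, with 0.426%, 0.452% and 0.465% in FUDR replicates 1, 2 and 3, against 0.335%, 0.322% and 0.314% in OP50 replicates 1, 2 and 3, so that every FUDR library was above every OP50 library.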

How the results depend on the processing

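Under library size only, 5814 genes were called higher and 1931 lower (75.07% higher), and under upper quartile scaling 4975 and 2492 (66.63%), against 3397 and 3582 (48.67%) with TMM; the median over all genes shifted by 0.23 and 0.15 (log2) under these scalings.

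Of the members, 1 was called higher (unc-27) with upper quartile scaling, library size only, the 5 CPM filter and the non-robust fit. Under these settings 29.2%, 34.2%, 25.8% and 19.9% of all genes tested were called higher. The number called lower was 2 with the non-robust fit, against 21.1% of all genes tested, and 2 with the length offset (unc-52 and ttn-1), against 16.9%. When libraries were left out 1 to 8 members were lower, against 15.5% to 22.2% of all genes. There 0 to 1 were higher, against 13.5% to 19.7%. With the replicate block the number called lower was 3 (unc-52, ttn-1 and unc-89), against 20.8% of all genes tested. Same-numbered libraries deviated from their group means with correlations of 0.19, −0.06 and 0.14, so the numbers were not taken to pair the samples. With the block, sca-1 (−0.66, edgeR adjusted p = 0.0455), dig-1 (−1.12, 0.0238) and bli-1 (−0.42, 0.0154) were also called, and git-1 (0.0557) and hlh-8 (0.0811) were not. The muscle genes called higher were 37 with upper quartile scaling, 45 with library size only, 26 with the 5 CPM filter, 45 with both length offsets and 6 to 18 when libraries were left out. These were 31.1%, 37.8%, 24.5%, 37.8% and 5% to 15% of the muscle genes tested. Over all genes tested the shares were 29.2%, 34.2%, 25.8%, 24.2% and 13.5% to 19.7%. Those called lower were 6 with library size only, 17 with DESeq2, 6 with both length offsets and 5 to 39 when libraries were left out. These were 5.04%, 14.2%, 5.04% and 4.17% to 32.8%, against 11.3%, 20.3%, 16.9% and 15.5% to 22.2% of all genes tested. The markers called higher were 19 with library size only, 17 with both length offsets and 3 to 12 when libraries were left out, and those called lower stayed between 10 and 13. Over all genes tested the shares called higher were 34.2%, 24.2% and 13.5% to 19.7%. The share of all genes called lower lay between 11.3% and 25.6% over the settings. The 6 ratios kept their direction without each library, though a ratio whose groups did not overlap could not have turned. The sign-flip test of pairs uses the same mean difference, so its direction was fixed in advance, and its smallest p is 0.25.

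Signs turned with the length offset, and again with its trend from genes under 16 kb, for myo-3 (0.026), lev-11 (0.17), unc-45 (0.054), pix-1 (0.013), slo-1 (0.0023 and 0.0024), pxn-2 (0.094), mua-3 (0.33 and 0.34), vab-19 (0.0015), vab-10 (0.28 and 0.22), myo-1 (0.18) and glh-1 (0.030 and 0.031). They turned for lev-11 with upper quartile scaling (0.056), library size only (0.13) and the 5 CPM filter (0.015), and with library size only for tnt-2 (0.029) and inx-8 (0.031). When libraries were left out, myo-1 lay between −0.64 and 0.10 (turning without FUDR replicate 3 and OP50 replicate 1, at 0.0019) and asp-1 between −0.046 and 0.24, and signs also turned for act-5 (−0.025 and −0.030) and egl-3 (−0.034). Apart from vab-10 none of these was called with its turned sign. The cause was not tested.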
